A study of Xenopus laevis with 46 samples.

Results

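The vegetal pole and the animal pole of Xenopus laevis blastulae were compared at 5 hours post fertilization (hpf), the earliest time of the study. Members were chosen by label alone: 3 libraries of the vegetal pole region (VP) and 3 of the animal pole region (AP), 6 of 46 libraries in all. The study measured RNA captured through 5-ethynyl uridine (EU), a uridine analogue that cells build into new RNA and that is then biotinylated and pulled down on streptavidin beads. One-cell embryos had received 10 nl of 50 mM EU, for a final concentration near 0.5 mM, and were kept at 22 °C until the 2 regions were dissected. All 6 libraries came from wild-type, EU-injected embryos, 1 library per region from each of 3 clutches by the series' description, and no library without EU was used here. A further 24 libraries of the first experiment covered 6 to 9 hpf, and 16 libraries of a second experiment covered 6 to 9 hpf with 2 technical replicates of 1 other clutch.

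The frog egg stores messenger RNAs unequally along its animal-vegetal axis during oogenesis. RNAs anchored at the vegetal cortex encode the T-box factor that starts endoderm and mesoderm, factors that set the dorsal side, and the germ plasm from which the germ line forms, while animal RNAs encode regulators of ectoderm. Broad transcription from the zygotic genome begins only at the mid-blastula transition, before which few genes are known to be transcribed. In these values, newly made RNA and stored RNA carried through the capture could not be told apart. Nor could fewer cells of a kind be told apart from less RNA per cell, since each library pools a whole dissected region.

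The 6 libraries were similar in total and very unequal in the number of genes seen. Totals of the deposited normalized values ran from 2111873 to 2482208. Genes above 0 numbered 15727, 8706 and 8488 in AP replicates 1 to 3 and 13551, 17708 and 7707 in VP replicates 1 to 3. Of the 19896 genes tested, 57.0% and 58.1% stood at 0 in AP replicates 2 and 3 and 61.9% in VP replicate 3, against 17.2% to 33.8% in the other 3. The value of 1 read could be recovered from the steps between low values in 3 libraries, which put them at 1370332 to 1922439 reads, and there a 0 allows a value of up to 3.63 to 4.98 (3 reads, counting error only). The depth of the other 3 is unknown. Pearson's r between pairs of the 6 libraries, over genes on the log2 scale, ran from 0.44 to 0.77, and the highest was between AP replicate 1 and VP replicate 2, across regions.

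The region labels were checked against marker RNAs. Both copies of vegt, the vegetal T-box factor, and grip2.L, pgat.L, trim36.L and hwa.L stood higher in every VP library than in any AP library. On the animal side foxi2.L, a forkhead activator of ectodermal genes, had 534, 1170 and 876 in AP against 192, 197 and 374 in VP, with no overlap. Its homeolog foxi2.S overlapped, at 458, 741 and 145 against 148, 185 and 496. Of 20 tested animal maternal genes, 5 were separated with AP above VP and 0 with VP above AP. Some members leaned to VP with overlap: trim33.S had 277, 5 and 4 in AP against 153, 212 and 373 in VP. mex3b.L had 139, 2 and 0 against 92, 75 and 1117. The animal label thus rests on fewer genes than the vegetal one. Markers of ovarian follicle and blood cells summed to 0 to 72 in AP libraries and to 0 in VP libraries over the 4 of 17 such genes that passed the filter on low values. Genes known to be switched on at the mid-blastula transition were mostly near 0. Of 56 tested genes of the early zygotic list, 24 stood at 0 in all 6 libraries and 48 had 20 or less summed over the 6. Of all 19896 genes tested, 1876 and 3660 did. The largest exception on the list was pou5f3.2.L, with 297, 341 and 266 in AP against 324, 166 and 119 in VP. Some members listed at 0 in all AP libraries were seen in VP: snai1.L at 0, 39 and 72, sia2.S at 59, 17 and 0, and nodal6.L at 93, 0 and 0. Many low values stood in VP replicate 2 alone, the library with the most genes above 0, such as 32 for bix1.1.S and 17 for tbxt.S. In AP alone, bix1.2.L and foxi4.2.L each had 1, in replicate 2.

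Regional RNA at 5 hpf was lopsided in strength. In the test across all genes (limma on log2(value + 1), Benjamini-Hochberg adjusted p under 0.05), 19 of 19896 genes were higher in VP (0.0955%) and 0 were higher in AP (0%). The spread in this test came from all 30 libraries of experiment 1. Its p-values and standard errors thus do not measure the spread at 5 hpf alone. At an unadjusted p under 0.05 the numbers were 607 higher in VP (3.05%) and 247 higher in AP (1.24%), together 854 genes (4.29%). That total is no larger than such a threshold gives on average where no gene differs. By a plain count of genes whose 3 values in one region all exceeded the 3 in the other, the sides were even, with 629 genes for VP (3.16%) and 627 for AP (3.15%). With 3 libraries per region some genes separate in this way without any regional difference, so the count alone does not mark a gene as regional. Where genes are named vegetal or animal below by this count, the name describes their values only. At least 1 AP library stood at 0 in 466 of the 629 (74.1%) and in 14 of the 19 called genes (73.7%). At least 1 VP library stood at 0 in 349 of the 627 (55.7%). The part of these zeros in the differences was not tested. The number called depended on single libraries: it was 30 without AP replicate 1, 8 without AP replicate 2, 6 without AP replicate 3, 6 without VP replicate 1, 8 without VP replicate 2 and 5 without VP replicate 3. With the spread estimated from these 6 libraries only, 17 genes were higher in VP and 1 in AP, and of these 18 only dnajc5g.S was also among the 19. With the number of genes above 0 in each library as a covariate, 22 genes were higher in VP and 0 in AP.

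**Figure D1:**
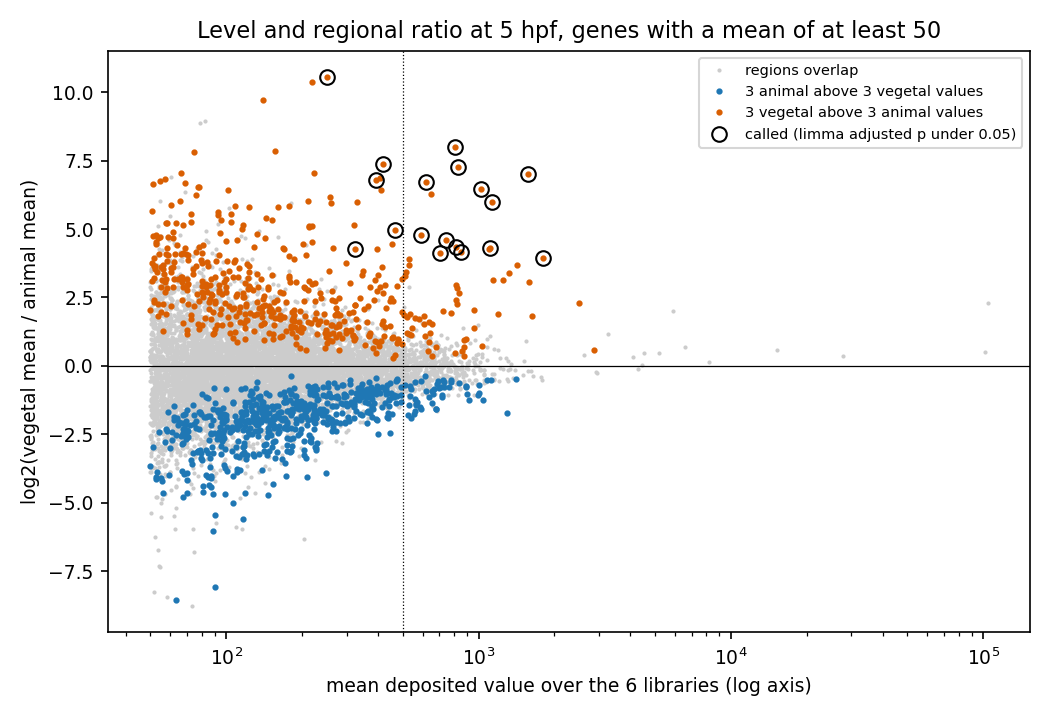
Each point is a gene with a mean of at least 50 over the 6 libraries, with the mean deposited value on a log axis and the log2 ratio of the VP mean to the AP mean. Genes listed at 0 throughout 1 region are left out. Among genes to the right of the dotted line at 500, vegetal ratios (orange) reach 253.6-fold and animal ratios (blue) stay at or under 3.74-fold.

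The strength of the 2 sides separated most clearly among genes with a high mean over the 6 libraries. Of 606 genes with a mean of at least 500 over the 6 libraries, a level chosen after the values were seen, 63 had all VP values above all AP values (10.4%) and 51 had the reverse (8.42%). That mean spans both regions, so a gene could pass through high values in 1 region alone. An AP library stood at 0 in 15 of the 63, and a VP library stood at 0 in none (0) of the 51. The ratio of the VP mean to the AP mean over the 63 ranged from 1.27 to 253.6 with a median of 4.00. The highest was that of LOC108716065, with 18, 1 and 0 in AP, so the largest ratios rest on AP values near 0. The ratio of the AP mean to the VP mean over the 51 ranged from 1.29 to 3.74 with a median of 1.90. A VP mean above 4 times the AP mean was reached by 31 of the 63 genes, and above 10 times by 20. No gene of the 51 reached 4 times in the other direction. This depended on the level: at a mean of at least 200, 33 separated animal genes and 96 vegetal ones exceeded 4 times. At a mean of at least 50, 236 animal and 323 vegetal genes did, and 58 and 173 exceeded 10 times.

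**Figure D2:**
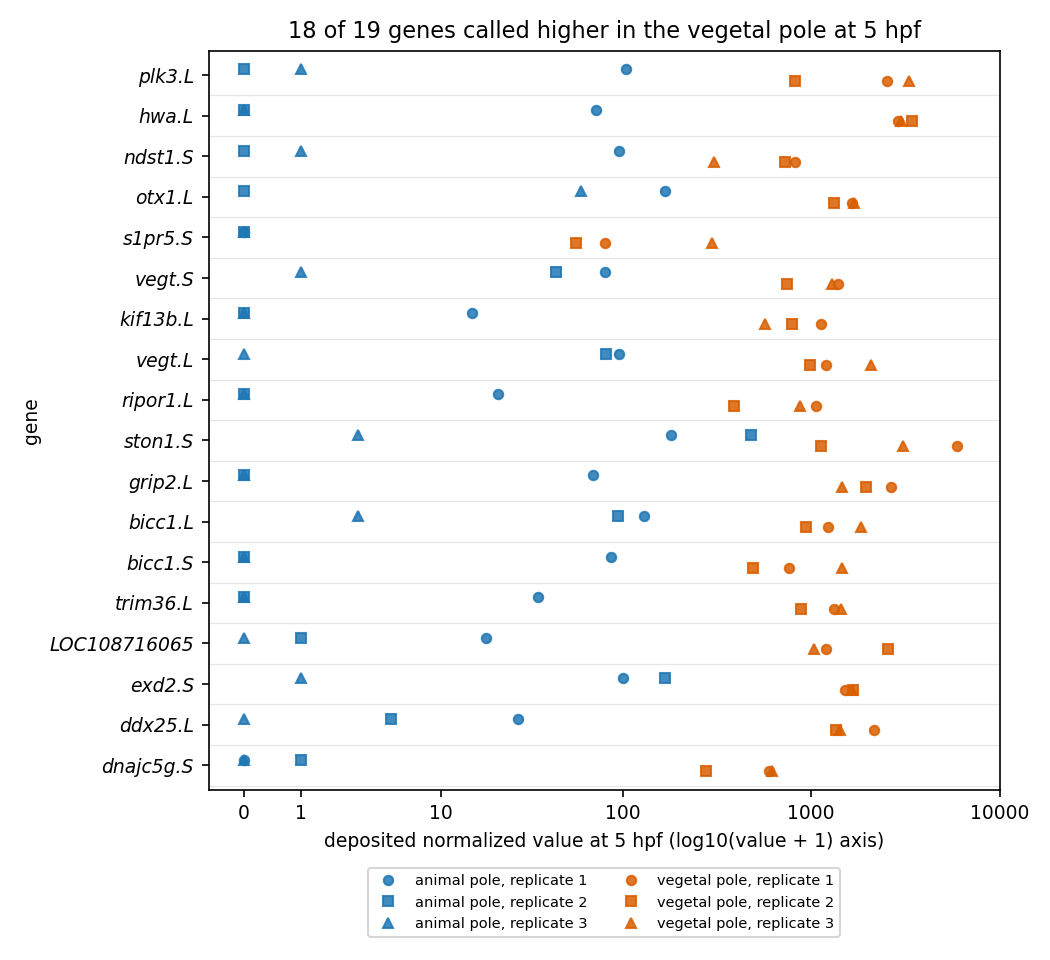
Deposited normalized values in the 6 libraries for 18 of the 19 genes called higher in VP, on a log10(value + 1) axis, with 1 symbol per replicate and genes ordered by adjusted p. In every gene shown the 3 VP values (orange) lie above the 3 AP values (blue).

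Known vegetal axis and germ-layer RNAs made up part of the 19. Among them was hwa.L, which encodes huluwa, a maternal membrane protein required for the dorsal organizer in fish and frog. It had 2891, 3440 and 3014 in VP against 72, 0 and 0 in AP. All 3 VP libraries were high, the regions did not overlap, and the fitted log2 difference was 9.54 ± 1.70 (SE from the spread over 30 libraries, n = 3 per region, limma adjusted p = 4.57e-04). The T-box gene vegt was called through both of its copies: vegt.L had 96, 81 and 0 in AP against 1208, 983 and 2087 in VP (log2 difference 6.08 ± 1.34, limma adjusted p = 0.0168), and vegt.S had 80, 44 and 1 in AP against 1388, 750 and 1291 in VP. The gene trim36.L, encoding a ubiquitin ligase needed for microtubule assembly and cortical rotation in the frog, had 35, 0 and 0 in AP against 1330, 891 and 1451 in VP. The homeobox gene otx1.L had 168, 0 and 60 in AP against 1656, 1321 and 1698 in VP, with no overlap between the regions.

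RNA-binding and germ plasm RNAs formed the next set. Both copies of bicc1, which encodes an RNA-binding repressor of translation, were called. The bicc1.L values were 130, 94 and 3 in AP against 1234, 936 and 1831 in VP, and the bicc1.S values 86, 0 and 0 against 763, 492 and 1456. Germ plasm RNAs with the same separation were grip2.L, encoding a PDZ scaffold protein needed for primordial germ cell movement in the frog, and ddx25.L, a DEAD-box RNA helicase known as deadsouth. AP values of grip2.L were 69, 0 and 0 and VP values 2667, 1965 and 1460, while ddx25.L had 27, 5 and 0 in AP against 2160, 1357 and 1420 in VP. Over the 20 tested members of the germ plasm list, 3 were called higher in VP (0.0955% of all genes were), 13 had all VP above all AP values (65%, against 3.16% of all genes), and the median log2 difference was 4.31, against 0.01 over all genes tested. Not all members were vegetal: ddx4.S, the vasa helicase, had 238, 148 and 42 in AP against 1, 73 and 0 in VP, with overlap between the regions, and tdrd6.L had 433, 0 and 331 against 167, 168 and 0.

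Several germ plasm RNAs with large differences did not pass the test. The values of pgat.L were 50, 0 and 0 in AP against 1846, 1205 and 787 in VP (limma adjusted p = 0.077). Those of nanos1.L, a translational repressor of the germ line, were 21, 0 and 0 against 624, 591 and 1211 (adjusted p = 0.208), and germes.L was listed at 0 in all 3 AP libraries with 966, 389 and 384 in VP (adjusted p = 0.154). For dazl.L, another germ-line RNA-binding protein, the values were 31, 0 and 0 against 944, 314 and 695 (adjusted p = 0.506). Each of these 4 was separated by region in all 6 libraries, and each was called in the average of 6 to 9 hpf from other libraries (adjusted p from 4.55e-10 for pgat.L to 1.50e-03 for germes.L). In a separate list of 17 tested vegetal maternal genes, 7 were called (0.0955% of all genes were), 14 had all VP above all AP values (82.4%, against 3.16% of all genes), and the median log2 difference was 5.98. Both lists were drawn up with earlier results of these data known, so their counts describe them and test nothing.

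The lowest adjusted p of all belonged to a gene outside those lists. plk3.L, a polo-like kinase gene, had 2543, 820 and 3325 in VP against 104, 0 and 1 in AP, a log2 difference of 8.33 ± 1.25 (limma adjusted p = 2.27e-06). Its homeolog plk3.S, the copy on the other subgenome of this allotetraploid frog, had 410, 571 and 1110 in AP against 673, 447 and 1131 in VP, which overlap. The L minus S difference between regions was 8.20 ± 2.02 on the log2 scale, with a limma adjusted p of 0.542 over 4958 homeolog pairs, so the copies were not shown to differ.

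Other called genes encode transport proteins, enzymes and chaperones. ston1.S, a stonin of the endocytic machinery, had the highest single value of the 19, with 5932, 1125 and 3056 in VP against 180, 482 and 3 in AP. kif13b.L, a kinesin motor, had 1125, 793 and 573 in VP against 15, 0 and 0 in AP. exd2.S, an exonuclease gene, was the most even across the VP libraries, at 1523, 1680 and 1660, against 100, 169 and 1 in AP. ripor1.L had 1063, 391 and 875 in VP against 21, 0 and 0 in AP, and dnajc5g.S, a DnaJ co-chaperone gene, had 599, 276 and 624 against 0, 1 and 0. One called gene has no name beyond its RefSeq locus, LOC108716065, with 1209, 2571 and 1038 in VP against 18, 1 and 0 in AP. The limma adjusted p-values of these 6 genes lay between 0.0105 (kif13b.L) and 0.0429 (dnajc5g.S).

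Among the vegetal genes were 2 for enzymes of heparan sulfate, the sugar chain that binds secreted growth factors, and only ndst1.S was called. ndst1.S, encoding a sulfotransferase that starts heparan sulfate modification, had 821, 727 and 306 in VP against 95, 0 and 1 in AP (log2 difference 6.62 ± 1.23, limma adjusted p = 8.33e-04). Its homeolog ndst1.L overlapped, with 158, 135 and 27 in AP against 91, 69 and 0 in VP. The L minus S difference between regions was -8.81 ± 2.15 (limma adjusted p = 0.542 over the pairs), so these copies were not shown to differ. sulf1.L, encoding a sulfatase that trims it, had 598, 422 and 291 in VP against 0, 0 and 1 in AP but did not pass (adjusted p = 0.0815). The 2 were picked out for their function after their values were seen. Both copies of ext1, a heparan sulfate gene held by the Wnt list, overlapped between regions. ext1.L had 234, 0 and 342 in AP against 103, 119 and 296 in VP, and ext1.S 344, 778 and 196 against 371, 253 and 383. Genes of that function were not counted as a group, so ndst1.S and sulf1.L do not speak for it.

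Further vegetal genes fell short of the threshold with large ratios. The 15 genes next in order of p with separated regions had adjusted p-values from 0.0702 upward. They included fndc3a.S (28, 0 and 0 in AP against 787, 529 and 1122 in VP) and the cyclin gene ccnj.S (281, 5 and 6 against 642, 585 and 914). In raph1.S, an actin regulator, and in wnk2.L, a kinase gene, no library stood at 0: raph1.S had 140, 141 and 46 in AP against 1242, 3227 and 1786 in VP, and wnk2.L had 317, 570 and 134 against 3196, 2149 and 3188. All 15 had a higher VP than AP mean in the second experiment at 6 hpf, as 39.7% of all genes did, and 9 of the 15 were called higher in VP in the average of 6 to 9 hpf (0.488% of all genes were), where wnk2.L had a log2 difference of 4.38 (limma adjusted p = 5.63e-15).

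A further 5 vegetal genes, chosen for display after their values were seen, stood above 100 in every AP library. atrx.L, a chromatin remodeller gene, had 289, 167 and 311 in AP against 2666, 1628 and 2423 in VP. r3hdm2.L had 437, 325 and 364 against 1478, 1538 and 1599, and it was called when only the 6 libraries were fitted (adjusted p = 0.0389). ep300.L, a histone acetyltransferase gene, had 579, 953 and 615 against 2751, 2149 and 2728, and its homeolog ep300.S had 368, 262 and 180 against 1050, 963 and 660. naga.S, encoding a lysosomal glycosidase, had 772, 1422 and 351 in AP against 3757, 2735 and 6008 in VP. None of these 5 passed the test at 5 hpf (adjusted p of 0.451 or more), and all but ep300.S were called in the 6 to 9 hpf average.

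The animal side held more genes with modest differences and no call. The lowest limma adjusted p of any gene named as higher in AP was 0.407, for adamtsl1.S, with 12, 202 and 10 in AP against 0 in all VP libraries. Among the 15 animal genes with the smallest p, VP replicate 3, the library with the fewest genes above 0, stood at 0 in 13 and at 3 or less in all 15. In the second experiment at 6 hpf, 12 of these 15 had the higher mean in AP, as 54.3% of all genes did, and none was called over 6 to 9 hpf (0.0653% of all genes were called higher in AP). Over all 627 genes with AP above VP, VP replicate 3 stood at 0 in 342 (54.5%), where 61.9% of all genes tested did. These shares have unlike bases. No gene of the 627 stood at 0 in an AP library, while all genes tested include 1876 at 0 in all 6 libraries. The part of VP replicate 3 in these differences was not tested. The mediator subunit gene med30.S, with 118, 145 and 77 in AP against 0 in all VP libraries, was the 1 animal gene called when only the 6 libraries were fitted (adjusted p = 0.0198). Its homeolog med30.L had a fitted log2 difference of 0.53, toward VP. These copies were not shown to differ (limma adjusted p = 0.874 over the homeolog pairs).

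**Figure D3:**
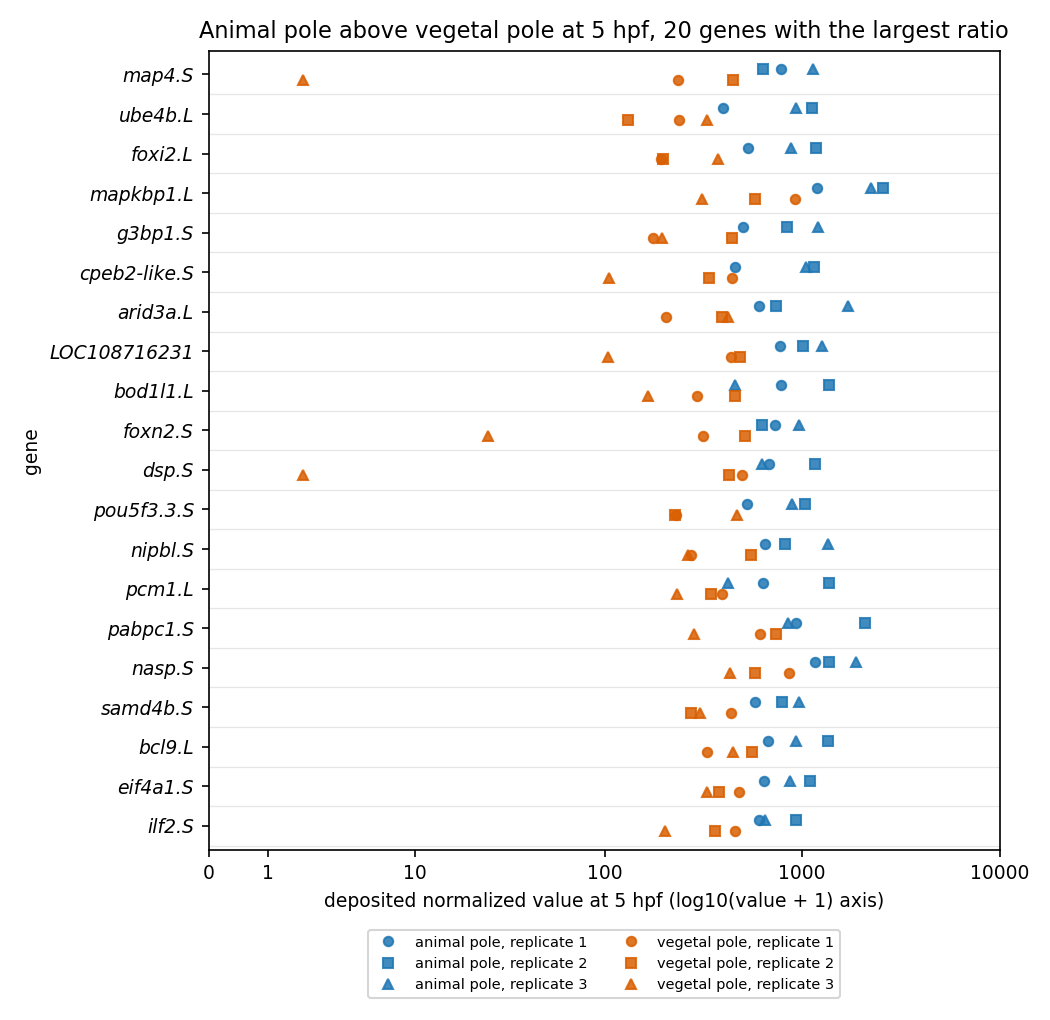
Deposited normalized values at 5 hpf on a log10(value + 1) axis for the 20 genes with the largest ratio of AP to VP mean among the 51 with a mean of at least 500 and all AP values (blue) above all VP values (orange). The ratios run down from 3.74 for map4.S, and VP replicate 3 is far below the other VP libraries in map4.S, dsp.S and foxn2.S.

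Animal genes with a mean of at least 500 came from several functional classes, named here after their values were seen. Cytoskeletal and junction genes included map4.S, a microtubule-associated protein gene, with 784, 634 and 1130 in AP against 234, 446 and 2 in VP, and dsp.S, encoding desmoplakin, with 677, 1163 and 628 against 495, 426 and 2. In both, VP replicate 3 lay far below the other VP libraries, and without it the fitted log2 difference of map4.S was -1.35 in place of -3.60. The homeologs map4.L and dsp.L had fitted log2 differences of 0.77 and 1.36, toward VP. The copies were not shown to differ (limma adjusted p = 0.884 for map4 and 0.926 for dsp over the homeolog pairs). Regulators of RNA included g3bp1.S, a stress granule protein gene, with 504, 839 and 1203 in AP against 175, 444 and 195 in VP, and pabpc1.S, a poly(A)-binding protein gene, with 927, 2091 and 849 against 610, 737 and 283. Here no VP library stood apart to the same degree. mapkbp1.L had the highest animal mean of the set, 1995 ± 718 (SD, n = 3) in AP against 604 ± 303 in VP, from 1185, 2554 and 2246 against 918, 580 and 313. arid3a.L, a DNA-binding protein gene, had 608, 736 and 1699 against 204, 395 and 420. None of these 6 animal genes passed the test (limma adjusted p of 0.618 or more), although map4.S did in 3 of 22 alternatives, with a mean of at least 50, without replicate 2 and without VP at 8 hpf replicate 2.

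The known animal maternal genes showed the same weak separation. Of 20 tested members of that list, none was called, and the median log2 difference was -0.48. All AP values exceeded all VP values in 5 (25%, against 3.15% of all genes tested and 6.5% of those with a mean of at least 50). Beside foxi2.L these were dand5.S, an antagonist of Nodal and BMP ligands, with 315, 628 and 271 in AP against 63, 88 and 0 in VP, grhl1.S, a grainyhead factor of the epidermis, with 627, 755 and 304 against 234, 172 and 171, and both copies of pou5f3.3, an Oct-family gene. The pou5f3.3.L values were 666, 1195 and 800 in AP against 554, 503 and 239 in VP, and the pou5f3.3.S values 526, 1038 and 892 against 231, 226 and 470. The neural factor gene sox3, often counted as animal, was not separated: sox3.L had 666, 1121 and 263 in AP against 993, 660 and 1012 in VP. Summed over the list, AP libraries held 8985 to 13537 and VP libraries 6669 to 10300, whereas the vegetal maternal list summed to 432 to 1673 in AP and 12259 to 17161 in VP.

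In the signalling and cell biology lists no gene was called, and separated genes are read against the 3.16% of all genes with VP above AP and the 3.15% with AP above VP. Those shares rose with level, to 5.45% and 6.5% at a mean of at least 50 over the 6 libraries. At a mean of at least 200 they were 6.71% and 8.46%. None of the 32 tested genes of the Wnt pathway list was called or separated, and ctnnb1.L, encoding beta-catenin, had 938, 595 and 1069 in AP against 955, 627 and 1237 in VP. The Wnt ligand gene wnt11b.L, which the vegetal list held, was separated, with 29, 24 and 0 in AP against 565, 339 and 969 in VP. It did not pass at 5 hpf (limma adjusted p = 0.573) and was called over 6 to 9 hpf (adjusted p = 2.09e-04). In the TGF-beta list 2 of 37 genes stood above in VP (5.41%) and 1 in AP (2.7%). The convertase gene pcsk6.L, whose product cleaves TGF-beta family precursors, had 0, 149 and 0 in AP against 703, 331 and 171 in VP without passing the test at 5 hpf (limma adjusted p = 1), and was called over 6 to 9 hpf (adjusted p = 1.52e-06). gdf1.L, the gene of the vegetal ligand Vg1, which the vegetal list held, had 0, 0 and 190 in AP against 534, 276 and 1064 in VP. Among 38 genes of RNA localization and translation control, 3 were above in VP (7.89%) and 2 in AP (5.26%). One of the 3 was zfp36l2.S, encoding a protein that binds AU-rich elements, with 335, 403 and 765 in AP against 1157, 2006 and 2474 in VP. Of 36 polarity and junction genes, 6 were above in AP (16.7%) and 2 in VP (5.56%). The 6 included tjp1.S, a tight junction scaffold gene, with 408, 698 and 771 against 233, 254 and 296, and ctnna1.L, encoding alpha-catenin, with 277, 808 and 353 against 128, 202 and 5. The other copy, ctnna1.S, overlapped between regions at 794, 1592 and 235 in AP against 703, 510 and 1227 in VP. Of 37 oocyte and cleavage cycle genes, 2 were above in VP and 2 in AP (5.41% each), and ccna1.L, cyclin A1, overlapped at 2241, 2024 and 1328 in AP against 1787, 1488 and 1029 in VP.

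Separation was also counted by pair of homeologous copies. Among 4958 pairs with both copies tested, both copies had VP above AP in 23 pairs and 1 copy in 328. The 23 pairs included vegt, bicc1, trim36, acsl1, ep300, sybu, raph1 and ythdf1. On the animal side both copies were separated in 16 pairs, including pou5f3.3, hmga2, mprip, ptpn11, rab5a and socs5, and 1 copy in 391. VP replicate 3, the library with the fewest genes above 0, stood at 0 in 1 copy of hmga2, ptpn11 and rab5a. In pou5f3.3, mprip and socs5 it was above 0 in both copies. No pair passed a test of the L minus S difference between regions at 5 hpf (limma, 0 called, 0%), with 275 pairs under an unadjusted p of 0.05 (5.55%). Over 6 to 9 hpf 1 pair passed (0.0202%), rtn3, of an endoplasmic reticulum protein: rtn3.S was listed at 0 in the AP libraries at 5 hpf, with 812, 313 and 221 in VP, where rtn3.L had 194, 167 and 119 in AP against 668, 396 and 1025 in VP. Reads from near-identical copies can be split by the authors' quantification, so values of single copies are uncertain to that extent.

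The later libraries of the first experiment gave fitted differences that the 5 hpf values did not enter. These libraries may come from the same 3 clutches. Calls at 5 hpf and later were not independent, since both tests used a spread estimated over all 30 libraries. Averaged over 6 to 9 hpf, 97 genes were higher in VP (0.488%) and 13 in AP (0.0653%). The whole distribution was shifted there, with a median log2 difference of -0.66 over all genes tested and a fitted difference below 0 in 74.7% of them. Of the 19 genes called at 5 hpf, 16 were called again in the same direction and 18 had a fitted difference above 0, as 25.3% of all genes did. In the second experiment at 6 hpf the VP mean exceeded the AP mean in all 19, as in 39.7% of all genes (the AP mean was higher in 54.3%), and at 8 hpf in 18 of 19, as in 39.9% of all genes. At 7 hpf the VP mean was the higher in 17 of 19 (24.7% of all genes), the exceptions being otx1.L, with 100 and 57 in AP against 6 and 20 in VP, and s1pr5.S, with 9 and 21 against 0 and 0. The VP libraries of that time had only 7306 and 4364 genes above 0. There 1 read was worth 5.84 and 6.51, so these VP values stand for few or no reads. At 9 hpf the VP mean was again the higher in 17 of 19 (48.1% of all genes), where ndst1.S had 3481 and 2825 in AP against 3258 and 2850 in VP and s1pr5.S showed no difference.

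**Figure D4:**
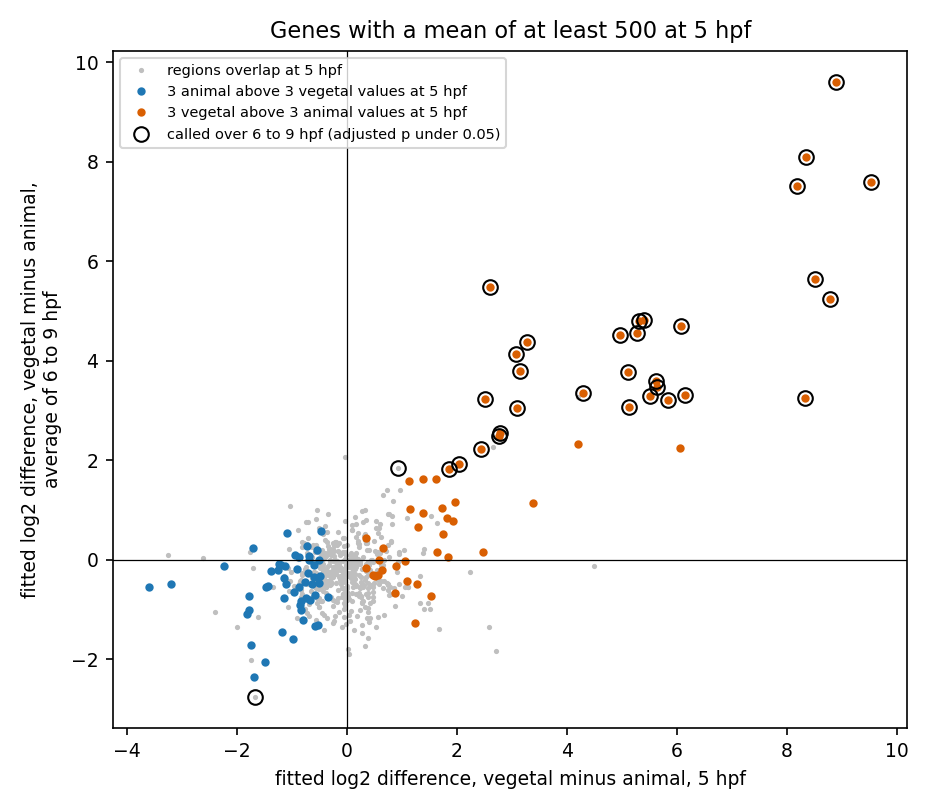
Fitted log2 difference, VP minus AP, at 5 hpf against the average of 6 to 9 hpf for the 606 genes with a mean of at least 500 at 5 hpf. Of the 63 vegetal genes (orange) 31 are ringed as called later, and of the 51 animal genes (blue) none is.

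Genes with a mean of at least 500 were followed on both sides. Of the 63 vegetal genes with a mean of at least 500, 50 (79.4%) had a later difference above 0, as 34.2% of all 606 genes did, and 31 were called higher in VP over 6 to 9 hpf (49.2% against 5.28% of the 606). In the second experiment at 6 hpf, 55 of the 63 (87.3%) had the higher mean in VP, as 49% of the 606 did, and at 8 hpf 54 of the 63 (85.7%) did, against 46.5%. Of the 51 animal genes, 42 (82.4%) had a later difference below 0, as 65.8% of the 606 did, and 40 (78.4%) had the higher mean in AP in the second experiment at 6 hpf, against 50.8%. At 8 hpf 34 of the 51 (66.7%) had the higher mean in AP, against 53.5% of the 606 and 56.5% of all genes. None of the 51 was called over 6 to 9 hpf. Of the 97 genes called later as vegetal, 72 had all VP above all AP values at 5 hpf (74.2%, against 3.16% of all genes). The remainder included 7 genes at 0 in all 6 libraries, among them the zygotic genes nodal5.L, mixer.S and xenf.L.

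Of the 13 genes called higher in AP over 6 to 9 hpf, 4 were separated at 5 hpf (30.8%, against 3.15% of all genes). mprip.L, which encodes a myosin phosphatase-interacting protein, had 402, 466 and 850 in AP against 130, 171 and 270 in VP at 5 hpf. Its later log2 difference was -3.64 (limma adjusted p = 2.01e-03), and in the second experiment at 6 hpf it had 982 and 785 in AP against 113 and 265 in VP. The homeolog mprip.S was separated too, with 455, 304 and 1024 in AP against 266, 144 and 79 in VP. The zinc finger gene znf609.S had 366, 422 and 421 against 118, 177 and 256 (later adjusted p = 7.07e-03), and the stress granule gene g3bp2.L 617, 219 and 452 against 182, 170 and 144 (later adjusted p = 0.0408). The fourth was LOC108714283, with 179, 264 and 161 against 98, 109 and 23. tfap2c.S, an AP-2 factor of the ectoderm, overlapped at 5 hpf at 477, 1294 and 811 against 298, 489 and 104 and was called later (adjusted p = 0.016).

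**Figure D5:**
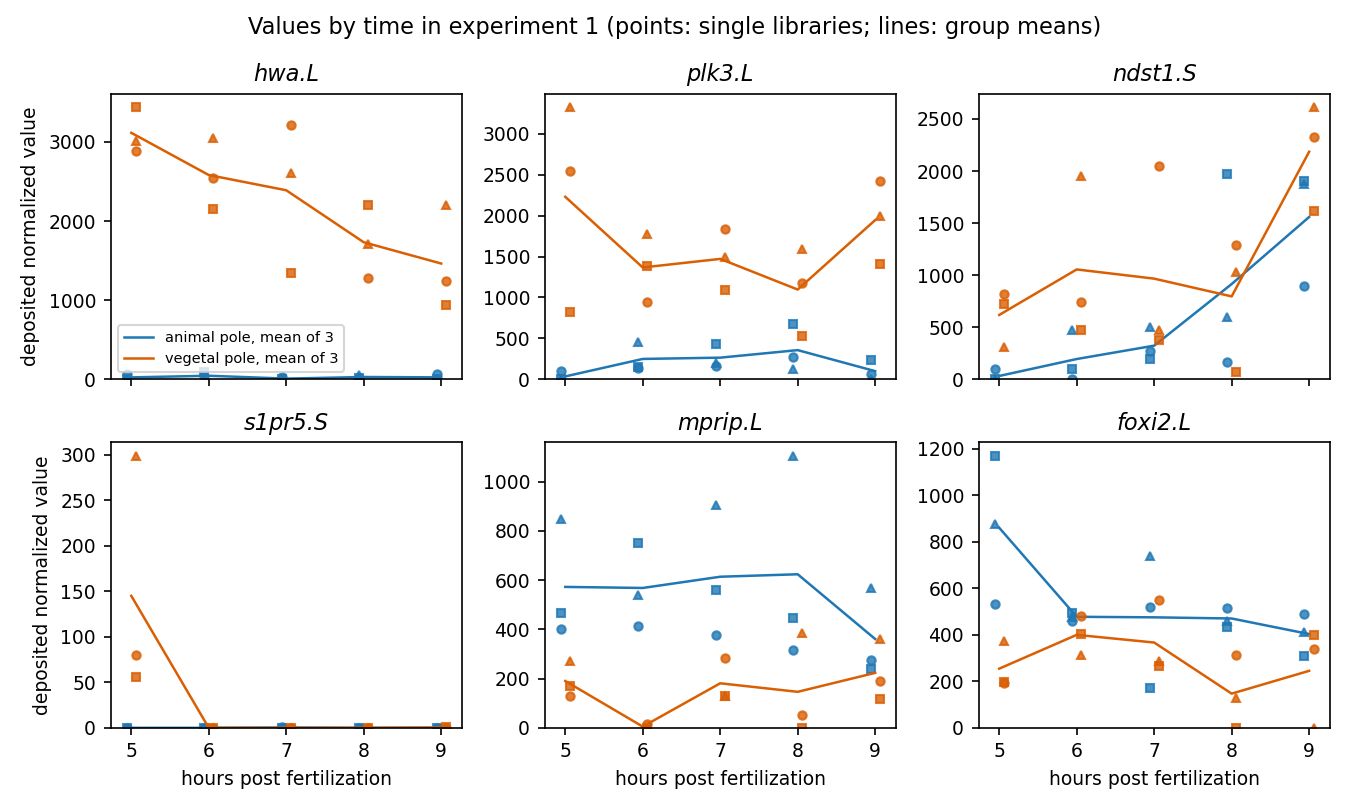
Deposited normalized values in experiment 1 by time for 6 genes, with points for single libraries (1 symbol per replicate) and lines for means of 3. The VP (orange) level of hwa.L stays above AP (blue) at each time, the AP level of ndst1.S rises to a mean of 1559 at 9 hpf, and s1pr5.S is seen in VP at 5 hpf and is at 1 or less later.

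Of the 19 called genes, 3 were not called later, and their courses differed. For ndst1.S the AP mean went from 32.0 at 5 hpf to 195, 323, 915 and 1559 at 6, 7, 8 and 9 hpf, while the VP mean was 618 at 5 hpf and 2185 at 9 hpf. The later log2 difference was 1.25 (limma adjusted p = 0.399). The log2 difference of dnajc5g.S was 8.54 at 5 hpf and 2.63 later, which did not pass (adjusted p = 0.295). s1pr5.S, which encodes a sphingosine 1-phosphate receptor, had 80, 56 and 299 in VP against 0 in all AP libraries at 5 hpf (adjusted p = 5.69e-03). It then stood above 0 in 2 of the 24 later libraries of experiment 1, with a highest value of 1, and ranged from 0 to 21 in experiment 2. The adjusted p at 5 hpf used a spread estimated over all 30 libraries, including those 24, so it does not measure the spread at 5 hpf alone. With only the 6 libraries fitted, s1pr5.S was not called. Of 5352 genes with at least 20 in every VP library at 5 hpf, it was the only 1 with 5 or less in each of those 24 libraries. No gene passed a test of the later minus the 5 hpf difference (limma, 0 of 19896 called, 998 or 5.02% at an unadjusted p under 0.05), and the lowest adjusted p, 0.35, was that of s1pr5.S.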

How the data were processed

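The deposited table held 50489 rows of whole-number values for 46 libraries, treated here as a score. The authors used Salmon 0.12.0 and DESeq2 (no version given), per the submitters' processing notes, and the deposited values behave as normalized and rounded ones, not raw counts. For build and annotation, nothing is given in the sources used here. Rows sharing a gene name were summed (49233 names, 1256 rows merged), and names were matched to RefSeq symbols for 17465 of 19896 tested genes (87.8%). No count model was used. limma 3.58.1 in R 4.3.3 was fitted to log2(value + 1) over the 30 libraries of experiment 1, with 1 coefficient per region and time, mean trend and robust settings, for genes with at least 10 in at least 3 of the 30 libraries, and was tested on simulated data. Fold changes on the log2(value + 1) scale can understate those of low genes and depend on the pseudocount where values stand at 0. Where single libraries stand near 0, the fitted difference can also exceed the ratio of means. hwa.L had a fitted log2 difference of 9.54 and a 129.8-fold ratio of means. map4.S had -3.60 and a 3.74-fold ratio of the AP to the VP mean. The 6 to 9 hpf contrast averaged the 4 later times, and technical replicates of experiment 2 were averaged without a test. The members, gene lists and tests were chosen with earlier results of these data known. Genes were named where called, where among the 15 per direction with the smallest p, separated regions and a higher-region mean of 50 or more, where on a list (all members of the vegetal, germ plasm and animal lists, up to 4 per other list by mean), or as homeologs of these. Any gene beyond these was picked with its values in view. The homeolog and later-minus-5 hpf tests and the level of 500 were added after seeing the data. Some genes that count in these totals are not reported here. Figures were drawn with matplotlib. Replicates share numbers across regions, but residuals of same-numbered libraries correlated at only 0.06, -0.02 and 0.05, so the numbers were not taken as pairs.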

Additional observations from a re-analysis of the deposited data

How the results depend on the processing

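The counts of called genes depended on the settings. Of 1887 recomputed values of 86 genes above 0 at 5 hpf, 1606 kept direction and side of the threshold, 97 gained and 162 lost a call, and 22 changed sign. The last concerned only ctnna1.S, ctnnb1.L, foxi2.S, ndst1.L, plk3.S, sox3.L and tdrd6.L, whose regions overlap: with copies summed ctnna1 moved to -0.35, ctnnb1 to -0.29 and ndst1 to 2.6 (log2), with the covariate ctnna1.S to -0.28, and with array weights ctnna1.S to -0.10, ctnnb1.L to -0.056, plk3.S to -0.052 and tdrd6.L to 0.78. Leaving out single libraries or replicate numbers gave -0.91 to 1.1 for ctnna1.S, -0.15 to 0.37 for ctnnb1.L, -1.81 to 0.072 for foxi2.S, -0.22 to 0.53 for plk3.S, -0.094 to 1.26 for sox3.L and -4.87 to 3.02 for tdrd6.L. A gene with separated regions cannot change sign when a library is left out. Settings that alter only the filter, the spread or the later libraries leave its difference at 5 hpf as it was. The number of sign changes therefore does not measure how firm the directions are. Main counts were 19 genes higher in VP and 0 in AP at 5 hpf, and 97 and 13 over 6 to 9 hpf. At 5 hpf the VP count was 5 with no filter, 38 with a pseudocount of 10, 43 with array weights and 33 without VP at 8 hpf replicate 2, and the AP count was 1 with a mean of at least 50 and 1 with only the 6 libraries. The later VP count was 170 with a pseudocount of 10, 174 with genes above 0 as a covariate, 168 with array weights and 148 without VP at 8 hpf replicate 2. The later AP count was 21 with no filter, 27 with 10 in at least 6 libraries, 55 with a pseudocount of 10, 7 with the covariate, 125 with array weights, 43 without trend and robust settings, and 35 with the replicate block. The block gave 19 and 0 at 5 hpf and 115 later in VP. Leaving out 1 library, or 1 replicate number, gave 5 to 33 and 0 to 2 at 5 hpf and 36 to 148 and 2 to 21 later. hwa.L was called in 21 of 22 alternatives, plk3.L in 19, otx1.L in 18 and ndst1.S in 16. Of other called genes, ston1.S was called in 7, dnajc5g.S in 9, vegt.S and ddx25.L in 10, LOC108716065 in 11, bicc1.S, exd2.S and trim36.L in 12, bicc1.L, grip2.L, ripor1.L and vegt.L in 13, and kif13b.L in 14 of 22, and s1pr5.S in 14 of 21. The median log2 difference over all genes at 5 hpf moved from 0.01 to 0.59 without AP replicate 1 or without VP replicate 3. In 3 of the 6 libraries 57.0% or more of tested genes stood at 0, and the part of depth in this was not tested.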
